A study of Saccharomyces cerevisiae with 4 samples.

Results

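The 10 core, variant and linker histone genes of the budding yeast Saccharomyces cerevisiae were followed in RNA from cells that were induced, or not, to make Msn2A6. They were found by gene symbol among the yeast probes of 4 arrays and make up 10 of the 6144 genes tested. Each had 1 probe, spotted in duplicate, and the probes of all 10 passed the filter on dim probes. Of the 10, 8 encode the core histones: HTA1 and HTA2 encode H2A, HTB1 and HTB2 encode H2B, HHT1 and HHT2 encode H3, and HHF1 and HHF2 encode H4. HTZ1 encodes the H2A variant H2A.Z, and HHO1 encodes the linker histone.

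The cells were of the strain labelled BY4741, a laboratory haploid, grown in rich glucose medium. Msn2 is a zinc finger activator of stress genes, and A6 is an allele of it that protein kinase A does not keep in check. One group was harvested 90 min after 6 nM 17β-estradiol was added to induce Msn2A6 (2 arrays), and the other was the untreated culture at 0 min (2 arrays). Both groups carried the inducible allele, and the sources used here do not give its promoter. No untreated culture at 90 min was measured, so estradiol, Msn2A6 and 90 min of further growth cannot be told apart. Nor can a smaller share of dividing cells and less histone RNA in each cell, since bulk RNA was measured.

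In a nucleosome, DNA wraps around an octamer made of a central tetramer of H3 and H4 and a pair of H2A-H2B dimers. Yeast core histone genes lie as divergent pairs, an H2A gene beside an H2B gene or an H3 gene beside an H4 gene, and their transcripts accumulate in S phase, when new DNA needs packaging. At 3 of the 4 loci a corepressor, the HIR complex, holds transcription down outside S phase, and the HTA2-HTB2 locus is the exception. HTZ1 is transcribed through the cell cycle, and its product is placed beside promoters by the SWR1 complex.

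Of 6256 yeast probes, 6151 to 6191 were well above background on an array, and none had a saturated spot. All 4 arrays lay on 1 slide. The median gap between replicates was 0.069 log2 at 90 min and 0.066 log2 at 0 min, close to the 0.066 to 0.074 log2 between duplicate spots. The p-values therefore measure the spread between these arrays, which may be largely technical. BY4741 is known to lack LEU2, MET17 and URA3, yet each was well above background on all 4 arrays, at 50840 to 276277 intensity units for LEU2 and URA3 and 16246 to 40406 for MET17. The MATa genes STE2, BAR1, MFA1, MFA2 and AGA2 were well above background on all 4 arrays, as were the MATalpha genes STE3, SAG1, MF(ALPHA)1 and MF(ALPHA)2. Their brightness differed. STE2 gave 4934 to 9909 units over the 4 arrays, and AGA2, the dimmest of the MATa genes, 496 to 862. SAG1 gave 771 to 1192 units, STE3 80 to 104 and MF(ALPHA)1 58 to 108. The signal of MF(ALPHA)2 was 17.7 and 19.4 units at 90 min and 20.5 and 22.8 units at 0 min. MSN2 was 5.55-fold higher at 90 min (limma, adjusted p = 1.34e-06), and whether its probe tells the induced allele and the chromosomal gene apart was not tested.

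The comparison asks how the histone genes differ 90 min after Msn2A6 induction. All 8 core histone genes and HTZ1 fell, and HHO1 alone rose. The changes of HHT1 and HHO1 were small, and their size and call depended on the scaling. Across all tested genes 46.2% fell, 30.3% rose and 76.5% did either (limma, adjusted p under 0.05). The median log2 change of the 8 core genes was -0.96, equal to 1.95-fold lower, against a median of -0.13 over all genes. A fall of at least 2-fold was found for 3 members, HTB2, HTA2 and, at a log2 change close to that limit, HTB1, and for 3.87% of all genes, while 0 members and 8.92% of all genes rose at least 2-fold. In 9 members both arrays at 90 min lay below both at 0 min, as they did in 52.9% of all genes, and in HHO1 both lay above, as in 35.6%. The largest gap between replicate arrays of any member was 0.12 log2.

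The H2A and H2B genes gave the largest falls. HTB2 (YBL002W) had intensities of 7513 and 7372 units at 90 min, against 24703 and 26433 units at 0 min. On the log2 scale relative to the 75th percentile of its array, its signal was -0.22 and -0.13 at 90 min, against 1.37 and 1.45 at 0 min. Both arrays at 90 min were far below both at 0 min, and its log2 change of -1.59 ± 0.06 (SE, n = 2 each) was 3.00-fold (limma, adjusted p = 2.2e-06). Only 40 of the 6144 genes had a lower change.

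HTA2 (YBL003C), its divergent partner, gave 19667 and 17698 units at 90 min, against 52877 and 52989 units at 0 min. Its log2 signal was 1.17 and 1.13 at 90 min, against 2.47 and 2.45 at 0 min. The groups were well apart, with a log2 change of -1.31 ± 0.06 (SE, limma, adjusted p = 2.94e-06), a 2.48-fold fall. HTA2 and HTB2 together make up the locus known to escape the HIR complex.

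HTA1 (YDR225W), the other H2A gene, had intensities of 26391 and 24454 units at 90 min, against 57402 and 57879 units at 0 min, and its log2 signal was 1.60 on both arrays at 90 min, against 2.59 and 2.58 at 0 min. The replicates nearly coincided, and the log2 change was -0.99 ± 0.05 (SE, limma, adjusted p = 8.78e-06). HTB1 (YDR224C), the other H2B gene, had log2 signals of 2.43 and 2.48 at 90 min, against 3.51 and 3.44 at 0 min. Its groups did not overlap either, and its log2 change of -1.02 ± 0.06 (SE, limma, adjusted p = 1.08e-05) was close to that of HTA1.

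**Figure D1:**
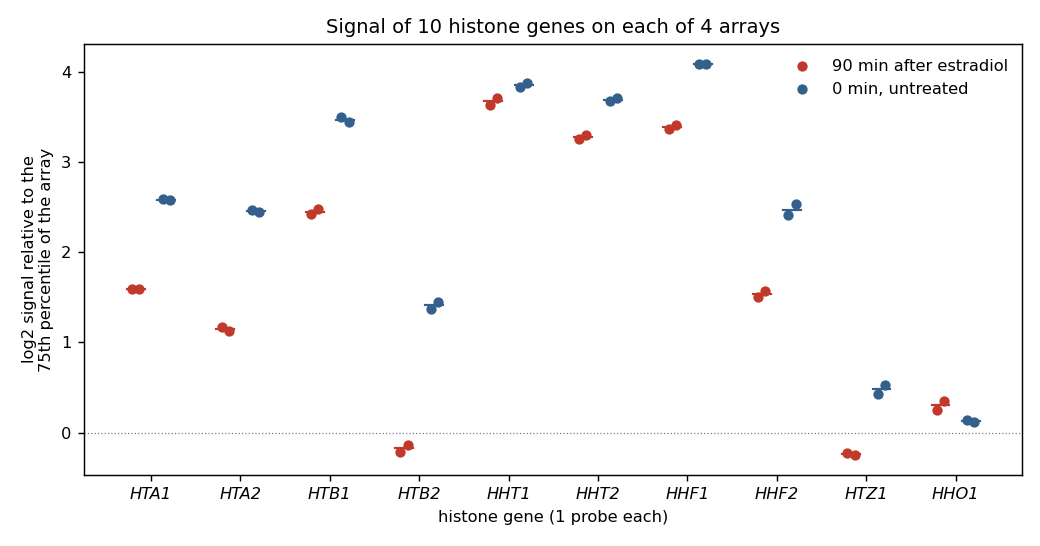
Log2 signal of the 10 histone genes relative to that array's 75th percentile, with a point for each array, a bar for the mean of 2 arrays, 90 min in red and 0 min in blue. In HTA1 to HTZ1 both red points lie below both blue points, and in HHO1 they lie above; heights are not comparable between genes, since probes differ in brightness.

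The H4 genes came next. HHF2 (YNL030W) gave 24748 and 24076 units at 90 min, against 50774 and 56087 units at 0 min. Its log2 signal was 1.50 and 1.57 at 90 min, against 2.41 and 2.53 at 0 min, so the groups lay apart although the 0 min arrays differed by 0.12. The log2 change was -0.93 ± 0.07 (SE, limma, adjusted p = 2.84e-05), or 1.91-fold. HHF1 (YBR009C), the other H4 gene, had log2 signals of 3.36 and 3.42 at 90 min, against 4.09 on both arrays at 0 min. It fell by 0.70 ± 0.06 (SE, limma, adjusted p = 4.76e-05), or 1.63-fold, with no overlap between groups.

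The H3 genes fell least among the core histones. HHT2 (YNL031C) gave 83689 and 79483 units at 90 min, against 122107 and 126840 units at 0 min. Its log2 signal was 3.26 and 3.30 at 90 min, against 3.68 and 3.71 at 0 min, and its log2 change of -0.42 ± 0.06 (SE, limma, adjusted p = 0.000539) was 1.33-fold. At this size it lay near the lower quartile of all genes, with 24.9% of genes changing further downward.

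HHT1 (YBR010W), the other H3 gene, had 108765 and 106350 units at 90 min, against 135802 and 142230 units at 0 min. On the log2 scale that was 3.64 and 3.72 at 90 min, against 3.83 and 3.88 at 0 min. The groups were 0.12 apart at their nearest arrays, no more than the largest replicate gap among the members. Its log2 change of -0.18 ± 0.06 (SE, limma, adjusted p = 0.0311) was near the median of all genes. The call was lost when arrays were scaled on their median (log2 change -0.13, adjusted p = 0.093). It was also lost without replicate 1 at 90 min (-0.14, adjusted p = 0.139), replicate 1 at 0 min (-0.20, adjusted p = 0.0735) or replicate 2 at 0 min (-0.15, adjusted p = 0.134), and its adjusted p ran from 0.000151 to 0.139 over 16 alternatives (limma).

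HTZ1 (YOL012C), the H2A.Z gene, had 7453 and 6795 units at 90 min, against 12856 and 14006 units at 0 min. Its log2 signal was -0.23 and -0.25 at 90 min, against 0.43 and 0.53 at 0 min. The groups were clearly apart, and the log2 change of -0.72 ± 0.06 (SE, limma, adjusted p = 6.33e-05), a 1.65-fold fall, was about that of HHF1.

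HHO1 (YPL127C), the linker histone gene, stood apart from the other members. Its intensities were 10403 and 10326 units at 90 min, against 10528 and 10520 units at 0 min, slightly lower at 90 min. The 75th percentile of the arrays was 8731 and 8084 units at 90 min, against 9528 and 9694 units at 0 min, and relative to it the log2 signal of HHO1 was 0.25 and 0.35 at 90 min, against 0.14 and 0.12 at 0 min. The log2 change of 0.17 ± 0.06 (SE, limma, adjusted p = 0.0376) was -0.022 with no scaling (adjusted p = 0.84) and -0.28 with spike-in scaling (adjusted p = 0.0954). With quantile normalization it was 0.15 (adjusted p = 0.0568) and with the deposited values 0.14 (adjusted p = 0.0511). Without replicate 2 at 90 min it was 0.12 (adjusted p = 0.174), without replicate 1 at 0 min 0.18 (adjusted p = 0.097) and without replicate 2 at 0 min 0.16 (adjusted p = 0.139), while the adjusted p ran from 0.0185 to 0.84 over all 16 alternatives (limma).

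**Figure D2:**
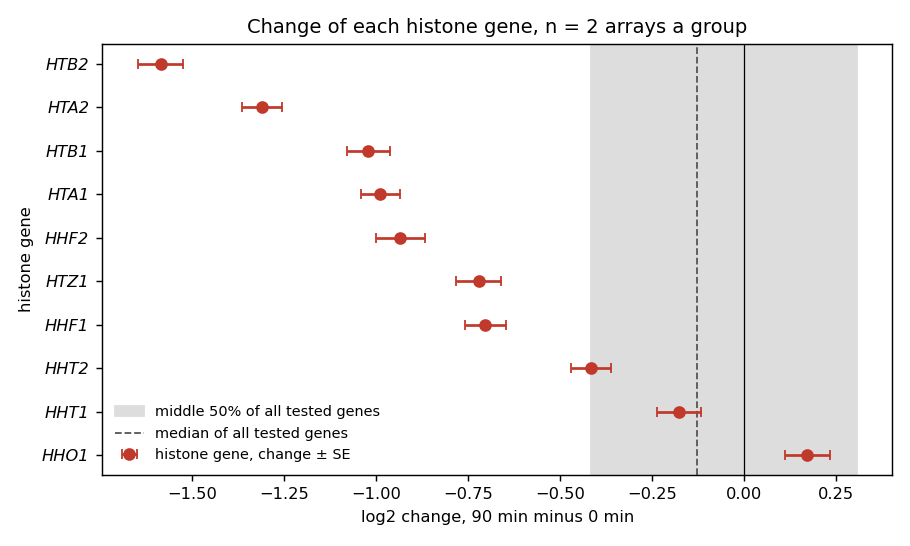
Log2 change of each histone gene, 90 min minus 0 min, with its limma SE (n = 2 arrays a group), from the largest fall at the top to HHO1 at the bottom. The dashed line is the median of all 6144 genes at -0.13, and the grey band spans their middle 50%, from -0.41 to 0.31; HHT1 and HHO1 lie inside it, HHT2 lies on its lower edge, and the other 7 lie below it.

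In the order of the changes, several neighbours were not separated beyond their spread. The within-array ratio of HTB1 and HTA1, of HTA1 and HHF2, and of HTZ1 and HHF1 overlapped between groups, with differences in change of 0.034, 0.054 and 0.018 log2. The other 6 neighbouring steps had ratios that lay apart, from 0.21 between HHF2 and HTZ1 to 0.35 between HHT1 and HHO1. The order was taken from these same values, which fixes the direction of each step, so the steps are a description with no test.

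Sorted by place in the octamer, the 4 H2A and H2B genes changed by -1.59 to -0.99 and the 4 H3 and H4 genes by -0.93 to -0.18. The ranges did not overlap over all 4 arrays, but without replicate 1 at 0 min HHF2 (-0.994) lay below HTB1 (-0.989) and HTA1 (-0.982). The array mean of the H2A and H2B genes minus that of the H3 and H4 genes was -1.70 and -1.73 log2 at 90 min, against -1.02 and -1.07 log2 at 0 min. The shift was -0.67 ± 0.03 (SE over arrays), the same under each scaling by a constant, and -0.75 with the deposited values, -0.74 with normexp and -0.73 with quantile normalization. This grouping was formed after the values were seen, so it is given as a description with no test.

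Pairs of histone genes were then compared within each array, where constant scaling has no part. Of 8 pairs compared, 4 set the copies of a protein against each other and 4 the partners of a divergent locus. With 2 arrays against 2, an exact permutation test (two-sided) cannot go below p = 0.333, and the lowest adjusted p over the 8 pairs was 0.381. None therefore passed, and the sizes are given with their SE over arrays.

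In all 4 copy pairs the gene numbered 2 fell further than its copy, and the ratios at 90 min lay below those at 0 min on every array. HTB2 over HTB1 was -2.64 and -2.61 log2 at 90 min, against -2.13 and -1.99 log2 at 0 min, a change of -0.56 ± 0.07 (exact permutation p = 0.333). HTA2 over HTA1 was -0.42 and -0.47 at 90 min, against -0.12 and -0.13 at 0 min, a change of -0.32 ± 0.02 (exact permutation p = 0.333). HHT2 over HHT1 changed by -0.24 ± 0.02. HHF2 over HHF1 changed by -0.23 ± 0.06, a value that was -0.36 both with normexp and with the deposited values. The copies of a protein are similar in sequence, and a probe that also takes up the transcript of the other copy would report a mixture of their changes. Probe sequences were not used here, so how far each signal is specific was not tested. In all 4 copy pairs the gene numbered 2 also had the dimmer probe at 0 min. The mean log2 ratio there was -2.06 for H2B, -0.12 for H2A, -0.16 for H3 and -1.62 for H4. Whether probe brightness had a part was not tested.

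Partners of a locus moved together at HTA1-HTB1 and apart at the H3-H4 loci. HTB1 over HTA1 was 0.83 and 0.88 log2 at 90 min, against 0.92 and 0.86 log2 at 0 min, and its change of -0.034 ± 0.036 (exact permutation p = 0.667) left the groups overlapping. HHF1 over HHT1 was -0.27 and -0.30 at 90 min, against 0.26 and 0.22 at 0 min, so the H4 gene fell further by 0.53 ± 0.02 (exact permutation p = 0.333). At the other H3-H4 locus, HHF2 over HHT2 was -1.76 and -1.72 at 90 min, against -1.27 and -1.18 at 0 min, a change of -0.52 ± 0.05. HTB2 over HTA2 changed by -0.28 ± 0.08.

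**Figure D3:**
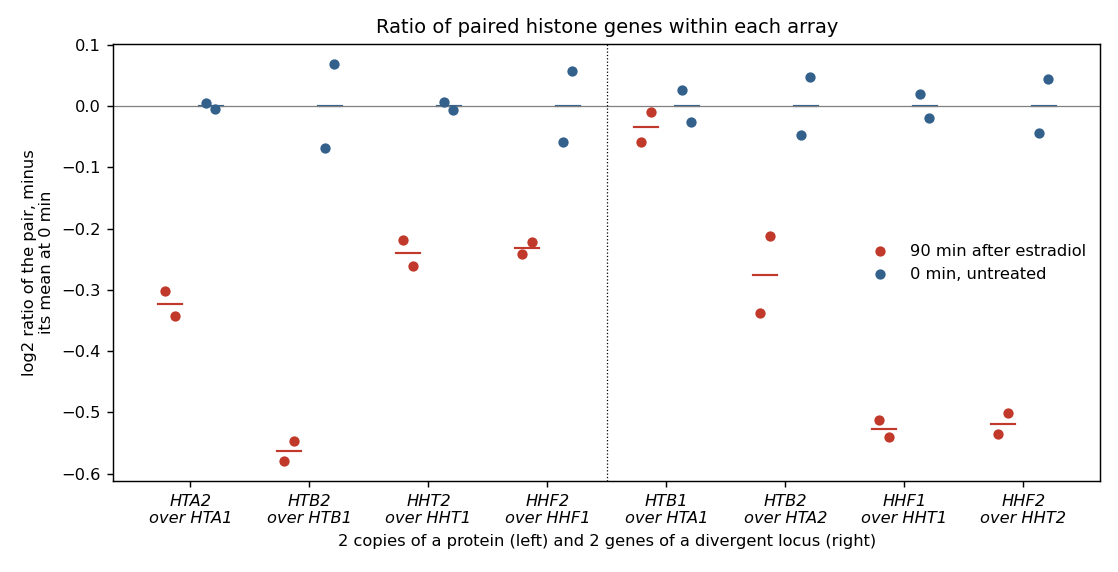
Log2 ratio of paired histone genes within each array, minus its mean at 0 min, with a point for each array, a bar for the mean, 90 min in red and 0 min in blue. The 4 pairs left of the dotted line are copies of a protein and all lie below 0 at 90 min; right of it, HTB1 over HTA1 overlaps between groups, while both H4 over H3 ratios lie about 0.52 lower at 90 min.

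How far the histone genes fell depended on the scaling between arrays. Relative to the 75th percentile, the spike-in controls stood at 0.0045 and -0.041 log2 at 90 min, against -0.59 and -0.35 log2 at 0 min. Scaling on them therefore lowered every change by 0.45, to a median of -0.58 over all genes and of -1.41 for the 8 core genes. In that setting 9 members fell and 0 rose, where 66.6% of all genes fell and 12.1% rose (limma). Of the member falls 7 were at least 2-fold. Every gene shifts by the same amount there, and the share of all genes falling that far was not counted. With no scaling the core median was -1.16 and 9 members fell and 0 rose, as 57.5% and 21% of all genes did. The deposited value table gave a core median of -1.09, with 9 fallen and 0 risen, where 48.7% of all genes fell and 29.4% rose. With normexp background correction the core median was -1.09, with 9 fallen and 1 risen, where 47.8% of all genes fell and 29.8% rose. In all 7 of these settings HTB2 had the lowest and HHO1 the highest change, with HTA2 second and HHT1 and HHT2 next to HHO1.

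**Figure D4:**
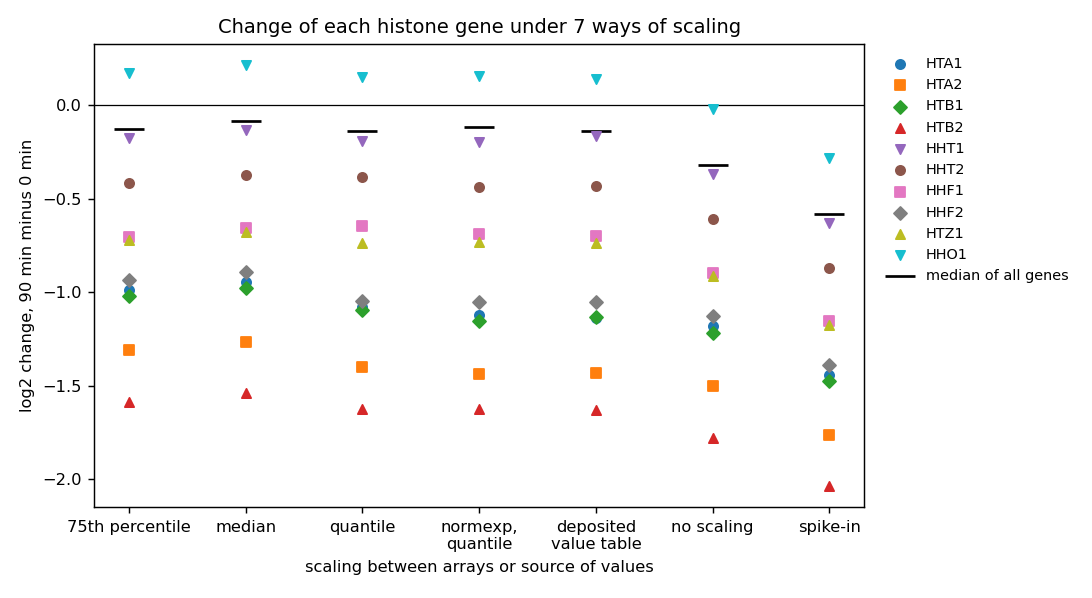
Log2 change of each histone gene, 90 min minus 0 min, under 7 ways of scaling the arrays, with a symbol for each gene and a black bar for the median of all genes. The symbols shift together, the core median lying between -0.92 (median scaling) and -1.41 (spike-in scaling), and HHO1 lies below 0 under spike-in scaling and under no scaling.

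The genes flanking the histone loci were read from the order of genes in a RefSeq table of assembly R64, since the array design is older. That table places the members of each core pair next to each other, and 12 other genes flank the 10 members. Of these, 5 fell, 4 rose and 3 did not pass, near the 46.2% fallen and 30.3% risen over all genes. CRF1, a corepressor gene of ribosomal protein genes that lies beside HTB1, had a log2 change of 1.56 ± 0.06, and ECM15, beside HTB2, of 1.30 ± 0.06 (SE, limma, adjusted p = 2.75e-06 and 3.68e-06). FLR1, a drug transporter gene beside HHF1, fell by 1.08 ± 0.07 (SE, limma, adjusted p = 2.58e-05). The flanking genes were chosen after the values of the members were seen, and those 3 because they changed at least 2-fold.

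Genes that act on histones or share their timing were read from 10 lists holding 161 genes, HST3 in 2 of them. Together 114 fell, 28 rose and 19 did not pass, against 46.2% fallen and 30.3% risen over all genes, with a median of -0.35. Among 12 regulators of histone transcription, 9 fell and 1 rose, and the median was -0.24. SPT21, a coactivator of histone genes, fell by 0.64 ± 0.06 and HIR1, of the corepressor, by 0.47 ± 0.06 on the log2 scale. ASF1, a histone chaperone that also takes part in the repression, fell by 0.38 ± 0.10, and HIR3 by 0.35 ± 0.05. Without replicate 2 at 0 min the ASF1 call was lost (log2 change -0.31, limma, adjusted p = 0.0657).

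Of 14 histone chaperone and assembly genes, 11 fell and 2 rose (median -0.39), against 46.2% fallen and 30.3% risen over all genes. HIF1, a partner of the nuclear histone acetyltransferase complex, had log2 signals of -1.87 and -1.82 at 90 min, against -0.22 and -0.17 at 0 min. It fell 3.13-fold (limma, adjusted p = 1.33e-06), about as far as HTB2. RTT109, which acetylates newly made H3, fell by 0.62 ± 0.07 and its chaperone partner VPS75 by 0.61 ± 0.06. CAC2, a subunit of the chromatin assembly factor that follows the replication fork, rose by 0.51 ± 0.06. RLF2 and MSI1, genes of other subunits of that factor and named after their values were seen, fell by 0.45 ± 0.06 and 0.42 ± 0.06.

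Genes of the SWR1 complex and H2A.Z handling were split, with 6 of 14 risen, 5 fallen and a median of 0.0053. That was 42.9% risen and 35.7% fallen, where 30.3% of all genes rose and 46.2% fell. BDF1, a bromodomain protein gene, rose by 0.67 ± 0.08, SWR1, the ATPase, by 0.61 ± 0.05 and CHZ1, a chaperone of H2A.Z, by 0.44 ± 0.06, and ARP4 fell by 0.45 ± 0.06. Under spike-in scaling 0 of the 14 rose and 8 fell, where 12.1% of all genes rose and 66.6% fell (limma), and the change of CHZ1 was -0.016. Around the centromeric H3 variant, CSE4 itself fell by 0.35 ± 0.06 and PSH1, its ubiquitin ligase, by 0.26 ± 0.06. SCM3, its chaperone, rose by 0.39 ± 0.08, or had a change of -0.065 with spike-in scaling.

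Among 14 genes of histone mRNA and protein turnover, 4 rose and 6 fell, near the shares over all genes. HEL1 and SNT2, ubiquitin ligase genes linked to histone breakdown, rose by 0.90 ± 0.07 and 0.62 ± 0.07, and the conjugating enzyme gene UBC5 by 0.59 ± 0.07. Other ligase genes of the list, named after their values were seen, did not rise. TOM1 fell by 0.32 ± 0.06 and PEP5 by 0.18 ± 0.06, and HEL2 did not pass (-0.082 ± 0.061). UBC4, the other conjugating enzyme gene of the list and also named after its value was seen, did not pass (0.14 ± 0.10). AIR1, of the nuclear RNA surveillance complex, fell by 0.35 ± 0.08, and its relative AIR2, the fourth that rose and named after its value was seen, rose by 0.28 ± 0.06. Of 26 histone modifying enzyme genes, 18 fell and 5 rose (median -0.29), against 46.2% fallen and 30.3% risen over all genes. SET2, an H3 methyltransferase gene, fell by 0.84 ± 0.06 and SAS2, an H4 acetyltransferase gene, by 0.69 ± 0.05. GIS1, which belongs to the JmjC demethylase family and also activates stress genes, rose by 1.24 ± 0.06, and the H3 demethylase gene JHD2 rose by 0.76 ± 0.06. With spike-in scaling the rises of CAC2, SWR1, BDF1, SNT2, UBC5 and JHD2 no longer passed, at log2 changes of 0.060 to 0.31 (limma, adjusted p = 0.0632 to 0.737). Of 8 other chromatin proteins, 4 fell and 2 rose, near the 46.2% fallen and 30.3% risen over all genes. The 4 that fell were RAP1 (-0.78 ± 0.06), NHP6A (-0.68 ± 0.06), ABF1 (-0.66 ± 0.06) and REB1 (-0.31 ± 0.06). The 2 that rose, named after their values were seen, were NHP10 (0.19 ± 0.06) and NHP6B (0.17 ± 0.06). With spike-in scaling 0 of the 8 rose, where 12.1% of all genes rose.

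Most genes of the 3 cell cycle lists fell beside the histone genes, against 46.2% fallen and 30.3% risen over all genes. Of 30 S phase and late G1 genes, 24 fell and 3 rose (median -0.46). RNR1, the large subunit of ribonucleotide reductase, had log2 signals of -0.051 and -0.050 at 90 min, against 1.36 and 1.28 at 0 min, and fell 2.58-fold. The G1 cyclin gene CLN2 fell 2.58-fold, the S phase cyclin gene CLB6 2.52-fold and the cohesin gene MCD1 2.49-fold.

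Of 20 G2 and M phase genes, all 20 fell, with a median of -0.68, where 46.2% of all genes fell. The mitotic cyclin genes CLB2 and CLB1 fell 2.26-fold and 2.11-fold, and the polo kinase gene CDC5 1.92-fold. YOX1 fell 2.64-fold, but whether its transcript belongs to this phase was not tested. Of 20 M to G1 genes, 16 fell and 4 rose (median -1.04), against 46.2% fallen and 30.3% risen over all genes. The daughter cell separation genes SCW11, DSE4 and DSE2 fell 3.56-fold, 3.32-fold and 2.99-fold, and PIR3, a cell wall protein gene, rose 2.92-fold. Their part in the histone result was not tested.

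**Figure D5:**
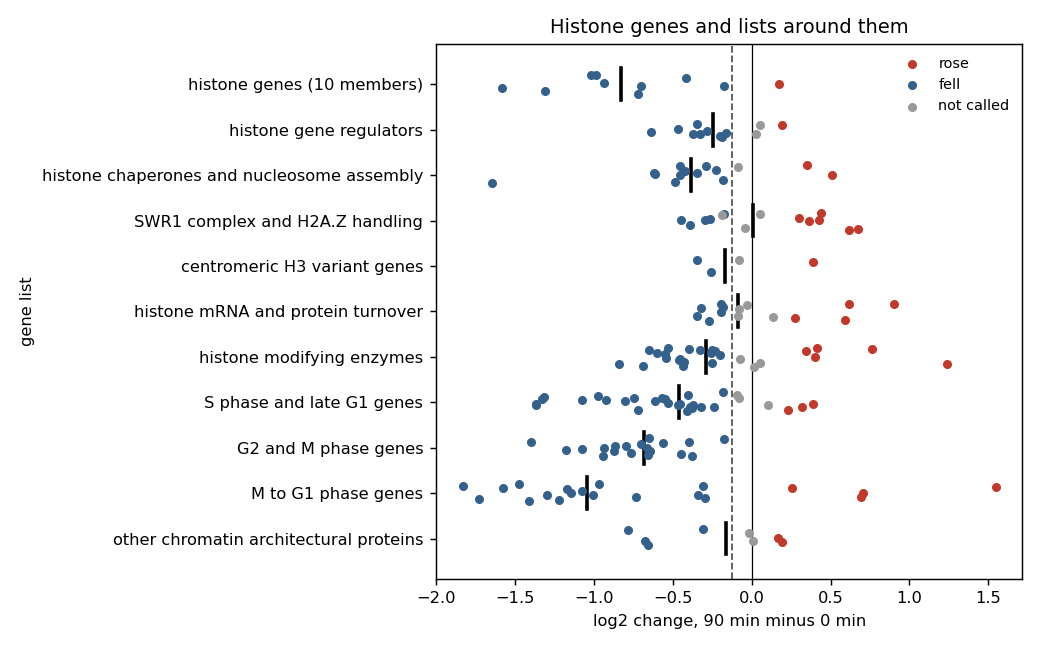
Log2 change, 90 min minus 0 min, of the 10 histone genes and of the genes of 10 lists around them, with a point for each gene coloured by its call (limma, adjusted p under 0.05) and a black bar for the list median. The histone median is -0.83, the G2 and M phase list lies wholly below 0, the M to G1 list has the lowest median at -1.04, and the SWR1 list straddles 0.

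The genes whose centred values over the 4 arrays lay nearest to the mean profile of the 8 core histone genes were OSW7, DUR12, ILV3, CIK1 and PFK2. Their Euclidean distances were 0.026 to 0.048 log2 and their log2 changes -0.92 to -0.85. With 4 arrays in 2 groups, such a likeness mostly records a change of about the same size.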

How the data were processed

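Total RNA was labelled in 1 colour and hybridised to Agilent yeast arrays. Per the file headers, the authors' scanner files came from Feature Extraction 10.7.3.1, whose processed intensity, subtracted for background and detrended, was used here. The deposited value table holds log2 values whose steps are unknown, and the submitters' processing notes name limma. Its columns were matched to samples by accession.

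Here log2 processed intensity was set relative to the 75th percentile over yeast spots of the array, and unmarked duplicate spots were averaged. Probes well above background on both arrays of a group were kept (6175 of 6256). The brightest probe stood for a gene. Symbols came from locus tags (5748 probes) or accessions (17) of RefSeq R64; 491 probes kept the file's name. Groups were compared by limma 3.58.1 (R 4.3.3, two-sided, 2 residual and 4.46 prior degrees of freedom), with Benjamini-Hochberg adjustment over all tested probes and a threshold of 0.05. The fit was tested on simulated data. Figures used Python 3.11.15 and matplotlib 3.10.9.

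The 10 members and the lists were chosen with earlier results of these data known. Named genes were all members, up to 4 called genes with the largest change per list and the 5 nearest profiles. Some further genes are marked in the text as chosen or named after values were seen. Alternatives were other scalings, normexp (offset 50, on median signal, since mean signal was not used here), the deposited value table, filters, priors, a replicate block and leaving out each array. Each group had 2 arrays, described as biological replicates, and this number limits the precision. No sequences were used here.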

Additional observations from a re-analysis of the deposited data

How the results depend on the processing

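The number of histone genes that fell was 8 or 9 under all 16 alternatives run. HHO1 was no longer called risen, giving 0 risen members, under quantile normalization, no scaling, spike-in scaling and the deposited value table, and its change was reversed to -0.022 under no scaling and -0.28 under spike-in scaling. Spike-in scaling also reversed CHZ1 (-0.016) and SCM3 (-0.065). The share of all genes that fell at least 2-fold was counted only in the main setting, at 3.87%. Among the members, falls of at least 2-fold numbered 5 with quantile normalization, normexp, no scaling or the deposited value table. They numbered 7 with spike-in scaling, against 3 in the main setting. They numbered 2 with median scaling, where the change of HTB1 was -0.98, and 2 to 3 when single arrays were left out, where it was -0.996 without replicate 1 at 90 min and -0.989 without replicate 1 at 0 min. The core median was -0.92 with median scaling, -1.06 with quantile normalization, -1.09 with normexp and in the deposited value table, -1.16 without scaling and -1.41 under spike-in scaling. Risen list genes numbered 14 under no scaling and 3 under spike-in scaling, where 745 of all genes rose. The H2A and H2B shift against H3 and H4 was -0.73 with quantile normalization, -0.74 with normexp and -0.75 in the deposited value table.

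In the deposited value table the pair changes were -0.36 for HHF2 over HHF1, -0.63 for HHF2 over HHT2, -0.26 for HHT2 over HHT1, -0.29 for HTA2 over HTA1, -0.20 for HTB2 over HTA2 and, reversed, 0.0077 for HTB1 over HTA1. With normexp they were -0.36 for HHF2 over HHF1, -0.62 for HHF2 over HHT2, -0.49 for HHF1 over HHT1, -0.19 for HTB2 over HTA2 and -0.47 for HTB2 over HTB1. The cause of these differences was not tested.

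Leaving out each array in turn gave 0 to 1 risen members and core medians of -0.99 to -0.93. The labels give both groups the replicate numbers 1 and 2 without saying what they mark, and deviations of same-numbered arrays correlated at 0.20 over probes. A replicate block, which leaves the size of each change as it is, gave 9 fallen and 1 risen member and called 2974 fallen and 1952 risen genes. No member was dim or saturated.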
